A study of Mus musculus with 8 samples.

Results

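Interferon response genes and guanylate-binding proteins (GBPs) were followed across 3 blood-forming populations sorted from mouse bone marrow. The set was a list of 42 genes, and a gene's value came from a probe set annotated with that symbol and no other. On this rule 41 of the 42 genes had a probe set, 1 each, among 22180 named genes. Gbp2 is given no value, because its probe set also carried the name Gbp2b. Mx1 lay under the level filter, a mean log2 value of 3.88, so 40 of the 42 genes were among the 17576 tested. No measured value entered the choice of a probe set, but the list was drawn up with earlier results of these arrays known.

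The mice were C57/Bl6 of 8 weeks, and every population was lineage-negative, Sca1-positive and Kit-positive marrow. Multipotent progenitors (MPP) were CD48+, CD150- and CD34+ and had 3 arrays. Short-term hematopoietic stem cells (ST-HSC) were CD48-, CD150+ and CD34+ and had 3 arrays. Long-term hematopoietic stem cells (LT-HSC) were CD48-, CD150+ and CD34- and had 2 arrays, replicates 1 and 3. The labels contradict each other on treatment: each array is described as untreated, whereas a protocol text shared by all arrays speaks of 2 hours in DMSO and of primary and secondary recipients. That text gives 1 year for primary and 3 months for secondary recipients. The series was made to ask where the chromatin remodeler Chd7 is expressed among these cells. Nothing in the labels says whether the arrays came from separate animals or pools, so the p-values measure the spread between these arrays only.

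Interferons are secreted proteins, and cells release those of type I on sensing viral or other foreign nucleic acid. Type I interferons bind the receptor pair IFNAR1 and IFNAR2, and interferon gamma binds IFNGR1 and IFNGR2. Both receptors signal through JAK kinases to STAT proteins, which with IRF9 or as STAT dimers enter the nucleus and switch on interferon-stimulated genes. The products sense viral RNA, block viral replication, tag proteins with ISG15, load peptides on MHC class I molecules or, in the case of GBPs and immunity-related GTPases, attack membranes around intracellular microbes. In the blood system interferons are known to push dormant stem cells into division.

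Each value below is a log2 RMA signal, and each difference is the mean of the first-named population minus that of the second on the log2 scale. Differences were tested with limma in 1 model over all 8 arrays, and a gene was called at a Benjamini-Hochberg adjusted p under 0.05 over the 17576 genes. The sort was visible in Slamf1, which encodes CD150, with 4.93, 5.46 and 4.77 in MPP, 7.32, 7.25 and 7.46 in ST-HSC, and 7.77 and 7.78 in LT-HSC. Cd34 was 11.00, 10.85 and 10.92 in MPP, 9.55, 10.15 and 10.07 in ST-HSC, and 8.50 and 10.20 in LT-HSC, so LT-HSC replicate 3 lay above every ST-HSC array. Cd48 was 7.84, 6.65 and 6.96 in MPP, against 7.49, 6.51 and 6.57 in ST-HSC and 5.92 and 6.63 in LT-HSC, and the ranges of MPP and ST-HSC overlapped. Ly6a, which encodes Sca1, was not analysed here.

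The first replicates of LT-HSC and of ST-HSC were less like the rest than the others. Their median correlations with the other arrays were 0.956 and 0.968, against 0.976 to 0.985 for the other arrays, and both carried low interferon response values. The 12 granulocyte and monocyte markers averaged 1.23 above their 8-array mean in ST-HSC replicate 1. They averaged 0.84 above it in LT-HSC replicate 1 and 0.71 above it in MPP replicate 1. In the other arrays that list lay between -1.08 and -0.24. The 8 stroma and endothelium markers were 1.46 above their mean in ST-HSC replicate 1. The same lists were low in LT-HSC replicate 3, where the granulocyte and monocyte markers averaged -1.08. The part of this difference in the interferon results was not tested.

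Across the 40 tested genes, the mean was highest in MPP for 30 genes (75%), in ST-HSC for 4 and in LT-HSC for 6, whereas 35.2% of all tested genes had their highest mean in MPP. The single member called in any comparison was Gbp9, which was lower in both MPP and ST-HSC than in LT-HSC. In bulk samples of this kind, fewer cells of a type and less RNA per cell cannot be told apart. Between MPP and LT-HSC, 0 members were called higher and 1 lower, where 0.00569% of all tested genes were called higher and 0.119% lower, and at an unadjusted p under 0.05 8 were higher and 1 lower (6.96% and 3.6% of all genes). Between ST-HSC and LT-HSC, 0 were called higher and 1 lower, against 0.848% and 0.0853% of all genes (0.933% in either direction), with 1 higher and 2 lower at an unadjusted p under 0.05 (7.81% and 3.25%). Between MPP and ST-HSC none of the 40 was called by limma, against 0.0683% of all genes higher and 0.125% lower, while 9 members were higher and 0 lower at an unadjusted p under 0.05 (3.63% and 3.26% of all genes). The F test over the 3 populations called 1 member, again Gbp9, and 0.905% of all genes.

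The members' differences were mostly positive in both MPP comparisons and of mixed sign between ST-HSC and LT-HSC. The members' median difference was 0.20 for MPP minus LT-HSC, against 0.06 over all genes, and 33 of 40 members (82.5%) were positive, against 57.2% of all genes. The arrays of MPP and LT-HSC did not overlap for 12 members, 11 higher and 1 lower (24.7% of all genes in either direction), where 14.1% of all genes were higher without overlap and 10.5% lower. For MPP minus ST-HSC the median was 0.30, against 0.01 over all genes, and 34 of 40 (85%) were positive, against 51.7%. Here 12 members were higher in MPP with no overlap and 1 was lower, where 7.75% of all genes were higher without overlap and 6.43% lower. For ST-HSC minus LT-HSC the median was -0.06, against 0.02 over all genes, and 18 of 40 members (45%) were positive, against 52.0%. In that comparison 2 members were higher without overlap and 1 lower, where the shares of all genes were 13.8% and 9.5%.

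These medians depended on single arrays. Without LT-HSC replicate 1 the median of MPP minus LT-HSC was 0.01 with 23 of 40 positive, and without LT-HSC replicate 3 it was 0.48 with 38 of 40 positive. For MPP and ST-HSC the median was 0.17 when ST-HSC replicate 1 was left out, with 28 of 40 positive. The sign of ST-HSC minus LT-HSC changed, with medians of -0.29 when LT-HSC replicate 1 was left out, 0.20 when LT-HSC replicate 3 was, 0.06 when ST-HSC replicate 1 was and 0.05 with each array centred on its median. Centring also moved the median of all genes to 0.18 for MPP minus LT-HSC and to 0.13 for ST-HSC minus LT-HSC, so the members' medians of 0.33 and 0.05 under it are to be read against those values.

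**Figure D1:**
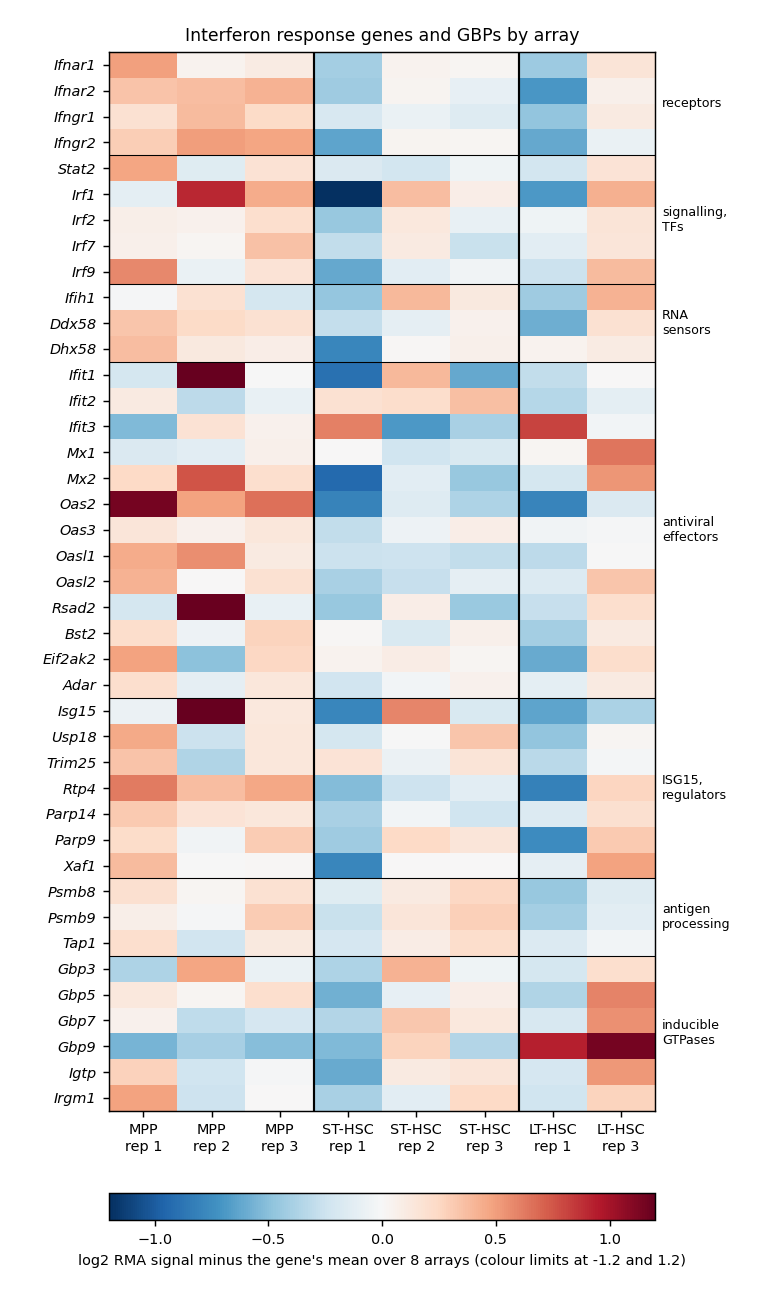
Level of 41 interferon response genes and GBPs in each array, as the log2 difference from the gene's mean over the 8 arrays (colour, limited to ±1.2), with arrays in columns (MPP, ST-HSC, LT-HSC) and genes in rows grouped by role. ST-HSC replicate 1 and LT-HSC replicate 1 are low for most genes, Gbp9 is high in both LT-HSC arrays, and Ifit1, Isg15 and Rsad2 are highest in MPP replicate 2.

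**Figure D2:**
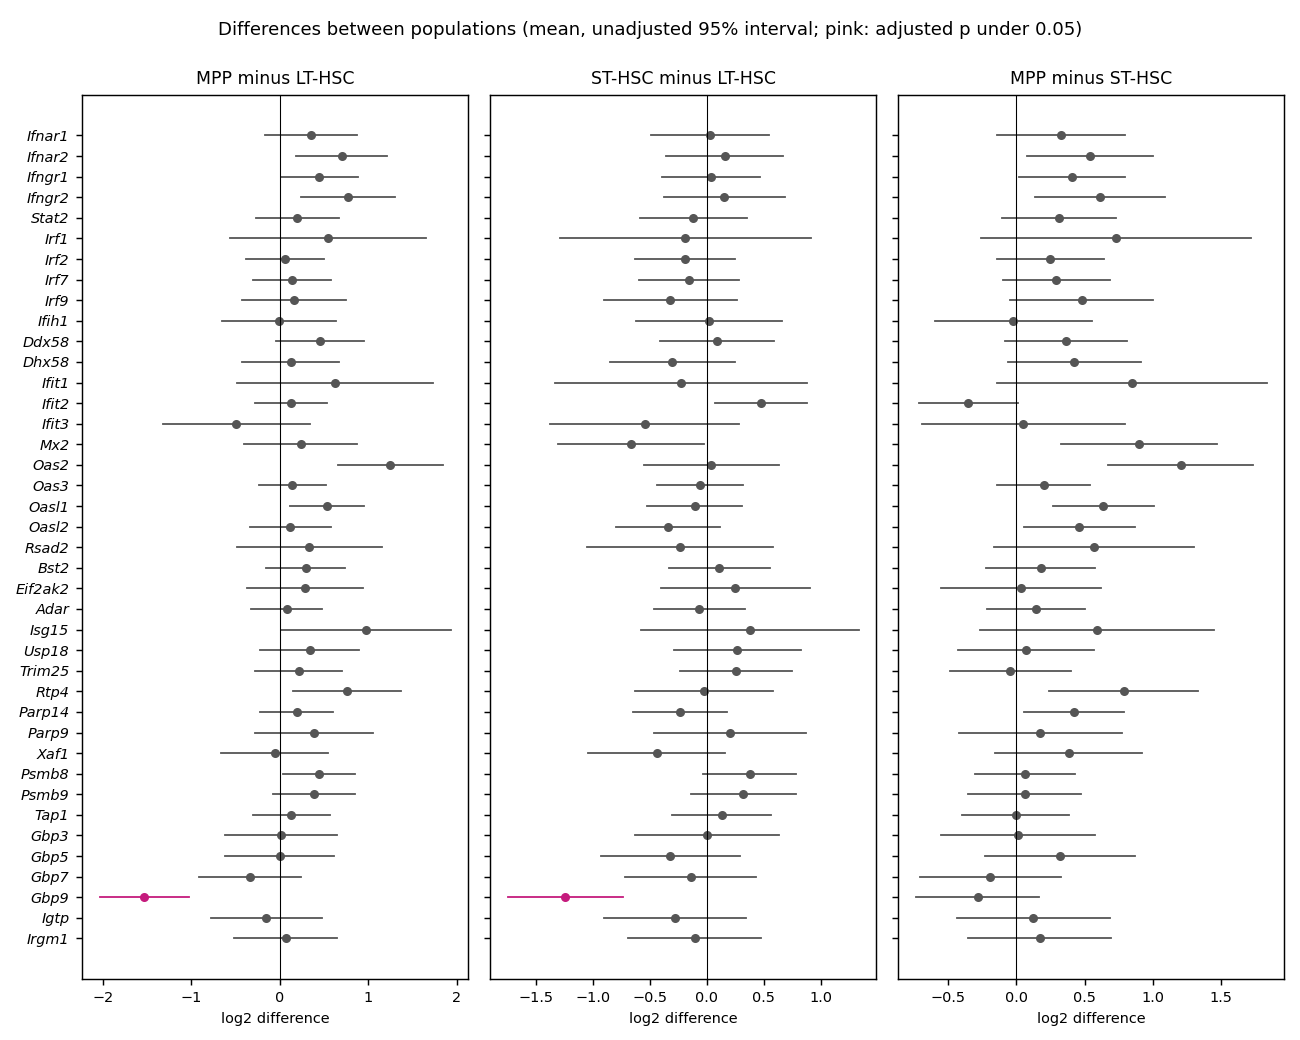
Log2 difference of each of the 40 tested members in the 3 comparisons (points), with 95% intervals from limma that are not adjusted for the number of genes (bars), ordered by role. Gbp9 is the member called in the first and second panels, and in the third no member passes the threshold.

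The receptor subunits were all highest on average in MPP, but none passed the test. Ifngr2, the signalling chain of the interferon gamma receptor, had 7.61, 7.81 and 7.79 in MPP, 6.68, 7.34 and 7.34 in ST-HSC, and 6.70 and 7.24 in LT-HSC. All 3 MPP arrays lay above all 5 stem cell arrays, and ST-HSC and LT-HSC overlapped. MPP exceeded LT-HSC by 0.77 (SE 0.24, limma adjusted p = 0.312) and ST-HSC by 0.62 (SE 0.22, limma adjusted p = 0.468). Ifnar2, the high-affinity chain of the type I receptor, had 9.74, 9.76 and 9.81 in MPP, 8.96, 9.43 and 9.30 in ST-HSC, and 8.69 and 9.45 in LT-HSC. The MPP arrays of Ifnar2 lay within 0.08 of each other and above all others. MPP exceeded LT-HSC by 0.70 (SE 0.23, limma adjusted p = 0.357) and ST-HSC by 0.54 (SE 0.21, limma adjusted p = 0.573). Without LT-HSC replicate 1 the excess over LT-HSC was 0.32 for Ifnar2 and 0.50 for Ifngr2, and without LT-HSC replicate 3 it was 1.08 and 1.04.

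Ifngr1, the ligand-binding chain for interferon gamma, averaged 0.44 higher in MPP than in LT-HSC and 0.41 higher than in ST-HSC, again with no overlap between MPP and the rest (limma adjusted p = 0.464 and 0.687). Ifnar1, the other type I chain, averaged 0.35 higher than in LT-HSC, with overlap, and 0.33 higher than in ST-HSC, without overlap. The lowest MPP array and the highest ST-HSC array of Ifnar1 nearly coincided, at 8.24 and 8.23. Without LT-HSC replicate 1 the excess over LT-HSC was 0.16 for Ifngr1 and 0.06 for Ifnar1. Thus 4 of 4 receptor genes were higher in every MPP array than in every ST-HSC array, as were 7.75% of all tested genes, and the median of the 4 differences was 0.47. All 4 stayed positive in both MPP comparisons under quantile normalization, median centring and without either of the arrays that stood apart. Between ST-HSC and LT-HSC the 4 differences ran from 0.03 to 0.16, and without LT-HSC replicate 1 all 4 were negative.

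**Figure D3:**
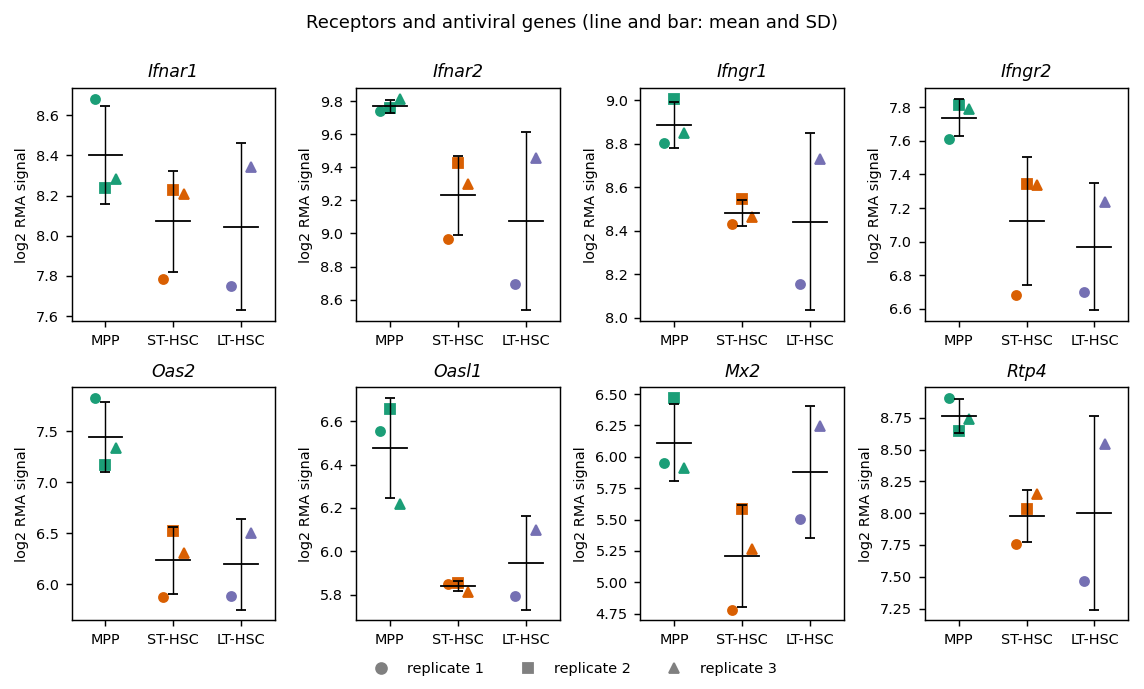
Log2 RMA signal of the 4 receptor genes and of Oas2, Oasl1, Mx2 and Rtp4 in each array of MPP, ST-HSC and LT-HSC (circle, square and triangle for replicates 1, 2 and 3), with the population mean (line) and SD (bar). The MPP arrays of Ifngr2, Ifnar2, Oas2 and Rtp4 lie above every ST-HSC and LT-HSC array.

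Among the signalling and transcription factor genes (Stat2, Irf1, Irf2, Irf7 and Irf9), 0 of 5 were called. All 5 averaged highest in MPP and lowest in ST-HSC, with differences of 0.25 to 0.73 for MPP minus ST-HSC and 0.06 to 0.54 for MPP minus LT-HSC, and for none of them were the MPP arrays free of overlap with another population. Irf1, an activator that responds early to interferon gamma, had 7.27, 8.29 and 7.83 in MPP, 5.97, 7.76 and 7.47 in ST-HSC, and 6.70 and 7.81 in LT-HSC. Its SDs were 0.51 in MPP, 0.96 in ST-HSC and 0.79 in LT-HSC, beside differences of 0.73 for MPP minus ST-HSC and 0.54 against LT-HSC, and the second was -0.01 without LT-HSC replicate 1. Irf2, which opposes IRF1 at many promoters, had 9.01, 9.0 and 9.15 in MPP, 8.49, 9.07 and 8.85 in ST-HSC, and 8.90 and 9.10 in LT-HSC, and its ranges overlapped throughout. Irf9, a DNA-binding factor of type I interferon signalling, averaged 0.48 higher in MPP than in ST-HSC (limma adjusted p = 0.80) and 0.16 higher than in LT-HSC. Stat2 and Irf7, the factor that amplifies type I interferon production, averaged 0.31 and 0.29 higher in MPP than in ST-HSC, with overlap. Without LT-HSC replicate 1, the MPP minus LT-HSC difference was positive for 2 of the 5 genes.

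The cytosolic RNA sensors gave 0 calls among 3 genes. Ifih1, which encodes MDA5 and detects long double-stranded RNA, averaged 8.33 ± 0.20 in MPP (SD, n = 3), 8.35 ± 0.44 in ST-HSC (SD, n = 3) and 8.33 ± 0.59 in LT-HSC (SD, n = 2), with no difference beyond that spread. Ddx58, which encodes RIG-I, was higher in every MPP array than in every array of the other populations, by 0.37 against ST-HSC and 0.45 against LT-HSC on average (limma adjusted p = 0.867 and 0.506). Its lowest MPP array and LT-HSC replicate 3 nearly coincided, at 8.05 and 8.04, and the difference from LT-HSC was 0.07 without LT-HSC replicate 1 and 0.84 without LT-HSC replicate 3. Dhx58, which encodes the regulator LGP2, averaged 0.43 higher in MPP than in ST-HSC without overlap (limma adjusted p = 0.842). Its lowest MPP array and highest ST-HSC array nearly coincided too, at 6.66 and 6.65.

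The antiviral effectors held the largest positive differences of all members. Oas2, an oligoadenylate synthetase that starts RNA decay through RNase L, had 7.82, 7.17 and 7.34 in MPP, 5.88, 6.52 and 6.30 in ST-HSC, and 5.88 and 6.51 in LT-HSC. The MPP arrays lay clear of the rest, and ST-HSC and LT-HSC covered nearly the same range. Oas2 averaged 7.44 ± 0.34 in MPP and 6.24 ± 0.33 in ST-HSC (SD, n = 3 each), a difference of 1.21 or 2.31-fold (SE 0.24, limma adjusted p = 0.0893). Against LT-HSC, at 6.20 ± 0.44 (SD, n = 2), the difference was 1.25 or 2.37-fold (SE 0.27, limma adjusted p = 0.163), and that between ST-HSC and LT-HSC was 0.04.

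The relatives of Oas2 behaved unevenly. Oasl1, a 2'-5' oligoadenylate synthetase-like protein, had 6.55, 6.66 and 6.22 in MPP, 5.85, 5.85 and 5.81 in ST-HSC, and 5.79 and 6.10 in LT-HSC. Every MPP array exceeded every other array, by 0.64 on average against ST-HSC (SE 0.17, limma adjusted p = 0.221) and 0.53 against LT-HSC (limma adjusted p = 0.377). Oasl2 averaged 0.46 higher in MPP than in ST-HSC without overlap and 0.12 higher than in LT-HSC with overlap. Oas3 differed by 0.20 against ST-HSC and 0.14 against LT-HSC.

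Mx2, a dynamin-like GTPase, had a mean in LT-HSC nearer to that in MPP than to that in ST-HSC, as had Oasl2, Ifit2 and Ifit3. Its values were 5.95, 6.47 and 5.91 in MPP, 4.78, 5.59 and 5.27 in ST-HSC, and 5.50 and 6.25 in LT-HSC. The MPP and ST-HSC arrays did not overlap, whereas LT-HSC overlapped both. MPP exceeded ST-HSC by 0.90 (SE 0.26, limma adjusted p = 0.271) and LT-HSC by 0.24 (limma adjusted p = 0.756), or by -0.14 without LT-HSC replicate 1. The difference of ST-HSC from LT-HSC was -0.67 (limma adjusted p = 0.431). Mx1, whose allele in C57BL/6 mice is defective, read 3.64, 3.70 and 3.88 in MPP, 3.83, 3.58 and 3.64 in ST-HSC, and 3.85 and 4.47 in LT-HSC, and was too low to be tested.

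Ifit2, an effector of the IFIT family that binds viral RNA, ran the other way. It had 6.09, 5.67 and 5.90 in MPP, 6.17, 6.20 and 6.35 in ST-HSC, and 5.65 and 5.87 in LT-HSC. All ST-HSC arrays lay above all MPP and LT-HSC arrays, by 0.48 against LT-HSC (SE 0.18, limma adjusted p = 0.369), and MPP minus ST-HSC was -0.35 (limma adjusted p = 0.753). Of the remaining effectors, Bst2 (tetherin, which holds budding virus at the cell surface), Eif2ak2 (the RNA-activated kinase PKR) and Adar (an RNA editing enzyme) differed between populations by at most 0.29. In all, 11 of 12 tested effectors were positive for MPP minus ST-HSC, also under quantile normalization, under median centring and without either array that stood apart.

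With the replicate number as a block, which compares MPP and ST-HSC arrays of the same number, the same differences gave calls that the unblocked model did not. The titles do not say what arrays of the same number share, and the pairing was chosen from these same values. In the fit of the 6 MPP and ST-HSC arrays, 4 members were higher in MPP: Oas2 (limma adjusted p = 0.0274), Mx2 (0.0236), Ifit1 (0.0387) and Rtp4 (0.0489), and the same fit called 1.64% of all genes, against 0.193% without the block. The fit with the block over all 8 arrays called 3 of them, Oas2 (limma adjusted p = 0.0175), Mx2 (0.0242) and Ifit1 (0.0281), gave 0.0982 for Rtp4 and called 1.52% of all genes. All 4 genes were higher in MPP in 3 of 3 pairs. For Oas2, Mx2 and Rtp4 any pairing would give this, because their MPP and ST-HSC arrays did not overlap.

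Isg15 and its neighbours in the pathway had 0 calls among 7 genes. Isg15 encodes a ubiquitin-like tag that is attached to viral and cellular proteins. It had 6.28, 7.70 and 6.48 in MPP, 5.57, 6.95 and 6.17 in ST-HSC, and 5.72 and 5.98 in LT-HSC. The MPP arrays exceeded both LT-HSC arrays, by 0.97 on average (SE 0.43, limma adjusted p = 0.467), but overlapped those of ST-HSC, and replicate 2 was the highest in both populations that have one. Rtp4, an interferon-induced protein that dampens the response, had 8.91, 8.65 and 8.74 in MPP, 7.76, 8.03 and 8.15 in ST-HSC, and 7.46 and 8.54 in LT-HSC. Its MPP arrays lay above all others, by 0.79 against ST-HSC (SE 0.25, limma adjusted p = 0.357) and 0.76 against LT-HSC (SE 0.28, limma adjusted p = 0.391). The LT-HSC arrays of Rtp4 were far apart, and the second difference was 0.22 without LT-HSC replicate 1 and 1.30 without LT-HSC replicate 3.

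Xaf1, an interferon-induced promoter of apoptosis, had 9.0, 8.63 and 8.64 in MPP, 7.85, 8.63 and 8.64 in ST-HSC, and 8.52 and 9.11 in LT-HSC, and ST-HSC replicate 1 was its lowest array. Parp14, an ADP-ribosyltransferase, averaged 0.42 higher in MPP than in ST-HSC without overlap (limma adjusted p = 0.589), while Parp9 overlapped in every comparison. Usp18, the protease that removes ISG15 and restrains the type I receptor, and Trim25, the ubiquitin ligase that activates RIG-I, differed by at most 0.34 with overlap in every comparison.

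Antigen processing genes had their lowest mean in LT-HSC for 3 of 3 genes, as had 4 of 4 receptor genes. Unlike the receptor genes, they had MPP close to ST-HSC, with a median difference of 0.06 against 0.47. Of all tested genes, 44.1% had their lowest mean in LT-HSC. Psmb8, an immunoproteasome subunit, had 8.66, 8.49 and 8.65 in MPP, 8.33, 8.57 and 8.71 in ST-HSC, and 8.01 and 8.31 in LT-HSC. Both MPP and ST-HSC lay above LT-HSC without overlap, by 0.44 (limma adjusted p = 0.45) and 0.38 (limma adjusted p = 0.486), and differed from each other by 0.06. Psmb9, another immunoproteasome subunit, had 10.09, 10.01 and 10.34 in MPP, 9.76, 10.18 and 10.32 in ST-HSC, and 9.62 and 9.90 in LT-HSC. MPP was above LT-HSC without overlap and ST-HSC overlapped it. Tap1, a subunit of the transporter that carries peptides to MHC class I molecules, differed by 0.13 in both comparisons with LT-HSC. Under quantile normalization 2 of the 3 genes, and not all, were positive against LT-HSC in both comparisons.

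The interferon-inducible GTPases were the role with the lowest median for MPP minus LT-HSC, -0.08 over 6 tested members, and they held the called gene. The sign of this median was not stable. It was 0.05 under median centring, -0.50 without LT-HSC replicate 1 and 0.21 without LT-HSC replicate 3. Gbp9, a guanylate-binding protein, had 5.38, 5.53 and 5.42 in MPP, 5.40, 6.20 and 5.58 in ST-HSC, and 6.87 and 7.08 in LT-HSC. Both LT-HSC arrays lay above all 6 others, MPP arrays were tightly grouped, and ST-HSC replicate 2 was the nearest to LT-HSC. Gbp9 averaged 5.44 ± 0.08 in MPP (SD, n = 3), 5.73 ± 0.42 in ST-HSC (SD, n = 3) and 6.97 ± 0.15 in LT-HSC (SD, n = 2). It was 2.89-fold lower in MPP than in LT-HSC, a difference of -1.53 (SE 0.23, 95% interval -2.04 to -1.02, limma adjusted p = 0.0361). It was 2.37-fold lower in ST-HSC than in LT-HSC, a difference of -1.25 (SE 0.23, 95% interval -1.75 to -0.74, limma adjusted p = 0.0318). MPP and ST-HSC differed by -0.28 (SE 0.21, limma adjusted p = 0.981).

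The size of the Gbp9 difference was stable and its call was not. Over 18 alternatives the limma adjusted p of Gbp9 against LT-HSC ran from 0.00226 to 0.237 in MPP and from 0.00189 to 0.345 in ST-HSC, and it was under 0.05 in 9 of 18 for each. The MPP minus LT-HSC call was lost without MPP replicate 1 (0.181), MPP replicate 2 (0.114), MPP replicate 3 (0.196), ST-HSC replicate 3 (0.0751) or LT-HSC replicate 1 (0.134). The ST-HSC minus LT-HSC call was lost without MPP replicate 3 (0.0807), ST-HSC replicate 1 (0.0776), ST-HSC replicate 3 (0.149), LT-HSC replicate 1 (0.155) or LT-HSC replicate 3 (0.0541). The differences themselves stayed between -1.67 and -1.41 and between -1.48 and -1.08.

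The other tested GTPases of the list did not share this pattern. Gbp5, a GBP that promotes inflammasome assembly, had 5.80, 5.69 and 5.88 in MPP, 5.09, 5.57 and 5.75 in ST-HSC, and 5.31 and 6.27 in LT-HSC. Gbp5 thus had its highest and nearly its lowest array both in LT-HSC. Gbp3 averaged 6.63 ± 0.43 in MPP (SD, n = 3), 6.62 ± 0.40 in ST-HSC (SD, n = 3) and 6.62 ± 0.30 in LT-HSC (SD, n = 2). Gbp7 differed by -0.33 for MPP minus LT-HSC, Igtp by -0.15 and Irgm1 by 0.07, all with overlap. Igtp and Irgm1 are immunity-related GTPases that act at vacuoles of intracellular pathogens.

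GBP genes lie in separate clusters in the mouse, in the RefSeq annotation of GRCm38.p6: Gbp5, Gbp7, Gbp3, Gbp2b and Gbp2 on chromosome 3, and Gbp8, Gbp9, Gbp4, Gbp10, Gbp6 and Gbp11 on chromosome 5. Among the 5 tested genes of chromosome 5, Gbp4 averaged 3.79 over the MPP and ST-HSC arrays, under the level filter, and passed it only through LT-HSC, so it is left out of the counts. Gbp8, Gbp9, Gbp10 and Gbp6 all had a lower average in MPP than in LT-HSC, with differences of -1.53 to -0.34, and 3 of the 4 had no overlap, where 10.5% of all genes were lower without overlap. They also averaged lower in ST-HSC than in LT-HSC, by -1.26 to -0.24, and 3 of the 4 had no overlap, against 9.5% of all genes, though the difference of Gbp6 was positive without LT-HSC replicate 1. The 3 tested genes of chromosome 3 ran from -0.33 to 0.01 and from -0.32 to 0.00, and 0 were free of overlap. This grouping was made after the values were seen, so it is a description with no test, and both comparisons share the LT-HSC arrays.

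Gbp10 had 6.04, 5.82 and 6.10 in MPP, 5.67, 6.34 and 5.89 in ST-HSC, and 6.88 and 7.15 in LT-HSC. Both LT-HSC arrays were higher than the rest, with a difference from LT-HSC of -1.03 in MPP (SE 0.22, limma adjusted p = 0.154) and of -1.05 in ST-HSC (limma adjusted p = 0.0553). Gbp8 had 6.11, 6.23 and 6.17 in MPP, 5.54, 6.03 and 6.29 in ST-HSC, and 6.40 and 8.03 in LT-HSC, so its LT-HSC mean rested on replicate 3. Gbp4 had 3.42, 3.93 and 3.85 in MPP, 3.70, 4.26 and 3.57 in ST-HSC, and 4.18 and 5.48 in LT-HSC, close to the level filter in most arrays. Gbp6 had 4.14, 3.97 and 3.85 in MPP, 4.25, 3.93 and 4.09 in ST-HSC, and 4.65 and 4.01 in LT-HSC, with LT-HSC replicate 1 its highest array. Neighbouring GBP genes are near-identical in stretches, and whether 1 transcript reached several of these probe sets was not tested.

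**Figure D4:**
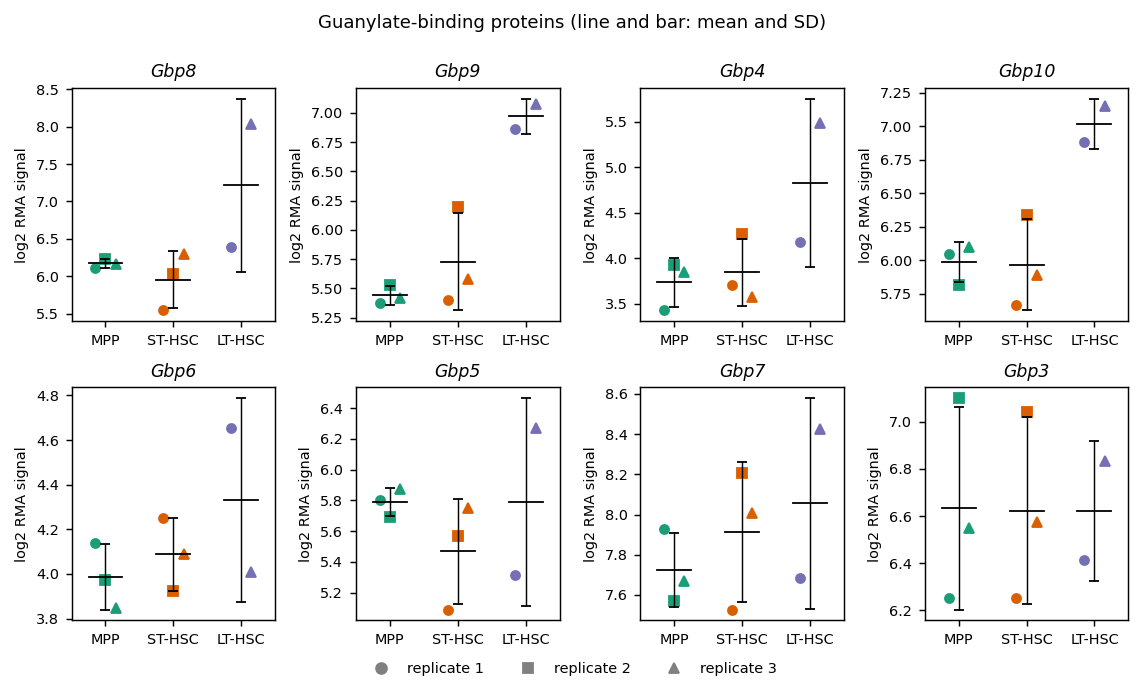
Log2 RMA signal of 8 GBP genes in each array of MPP, ST-HSC and LT-HSC (circle, square and triangle for replicates 1, 2 and 3), with the population mean (line) and SD (bar); the first 5 panels are genes of chromosome 5 and the last 3 genes of chromosome 3. Both LT-HSC arrays of Gbp9 and Gbp10 lie above all other arrays, whereas the LT-HSC arrays of Gbp5, Gbp7 and Gbp3 span or overlap the others.

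The widest spread within a population was that of Ifit1, Irf1, Rsad2 and Isg15. Ifit1, which binds viral RNA lacking a host cap, had 6.87, 8.71 and 7.08 in MPP, 6.18, 7.47 and 6.46 in ST-HSC, and 6.78 and 7.08 in LT-HSC. Rsad2, which encodes viperin, had 6.43, 7.83 and 6.56 in MPP, 6.18, 6.72 and 6.19 in ST-HSC, and 6.36 and 6.85 in LT-HSC. In MPP and in ST-HSC replicate 2 was the highest array of both genes, as it was for Isg15 and Irf1. Ifit3, a partner of IFIT1, followed in MPP and not in ST-HSC: it had 6.98, 7.68 and 7.56 in MPP, 8.12, 6.83 and 7.13 in ST-HSC, and 8.33 and 7.48 in LT-HSC, with LT-HSC replicate 1 and ST-HSC replicate 1 its highest arrays.

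MPP replicate 2 also held signal for an interferon itself. Ifnb1, which encodes interferon beta, had 2.98, 5.95 and 3.03 in MPP, 3.00, 3.12 and 2.80 in ST-HSC, and 3.25 and 3.03 in LT-HSC. It lay near 3 in 7 arrays, under the level filter, and was raised in MPP replicate 2 alone. Cxcl10, a chemokine induced by interferons, had 5.02, 9.56 and 6.53 in MPP, 5.54, 8.36 and 6.40 in ST-HSC, and 4.97 and 6.51 in LT-HSC. Set against the mean of the other MPP arrays, replicate 2 was higher by 3.79 for Cxcl10, 2.95 for Ifnb1, 1.73 for Ifit1, 1.34 for Rsad2, 1.32 for Isg15 and 0.74 for Irf1. Among the 17576 tested genes the excess of Cxcl10 ranked 1, and those of Ifit1, Rsad2 and Isg15 ranked 20, 54 and 55. Most members went the other way: 28 of the 40 were lower in MPP replicate 2 than the mean of the other MPP arrays and 12 higher, with a median of -0.17. Eif2ak2 stood at -0.86, Trim25 at -0.60, Usp18 at -0.56, Stat2 at -0.47, Irf9 at -0.45 and Oas2 at -0.42.

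In ST-HSC replicate 2 the excess over the other ST-HSC arrays was 2.39 for Cxcl10, again rank 1, then 1.15 for Ifit1, 1.08 for Isg15, 1.04 for Irf1 and 0.53 for Rsad2, whereas Ifnb1 stood 0.22 higher. There 32 of the 40 members were above the other ST-HSC arrays and 8 below. Of the 40 tested members, 3 exceeded 1 in MPP replicate 2, against 0.745% of all genes, and 3 in ST-HSC replicate 2, against 0.421%. Relative to the 8-array mean, MPP replicate 2 stood at 0.09 for the 6 dendritic cell markers, the highest of the 8 arrays. It stood at -0.18 for the 7 macrophage markers and at -0.32 for the 12 granulocyte and monocyte markers. ST-HSC replicate 2 stood at -0.03, 0.05 and -0.41 for the same lists. Whether other cells contributed to the signal was not tested. The genes named as high in replicate 2 were singled out after their values were seen, and LT-HSC has no replicate 2 here. A value that 1 array carries has no replicate check, so these are descriptions of the arrays and not of the populations. Without MPP replicate 2, the median of the 12 tested effectors for MPP minus LT-HSC was 0.19, against 0.26 with it. That median moved more with the LT-HSC arrays. It was 0.02 with 7 of 12 positive without LT-HSC replicate 1, and 0.56 with 11 of 12 positive without LT-HSC replicate 3.

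**Figure D5:**
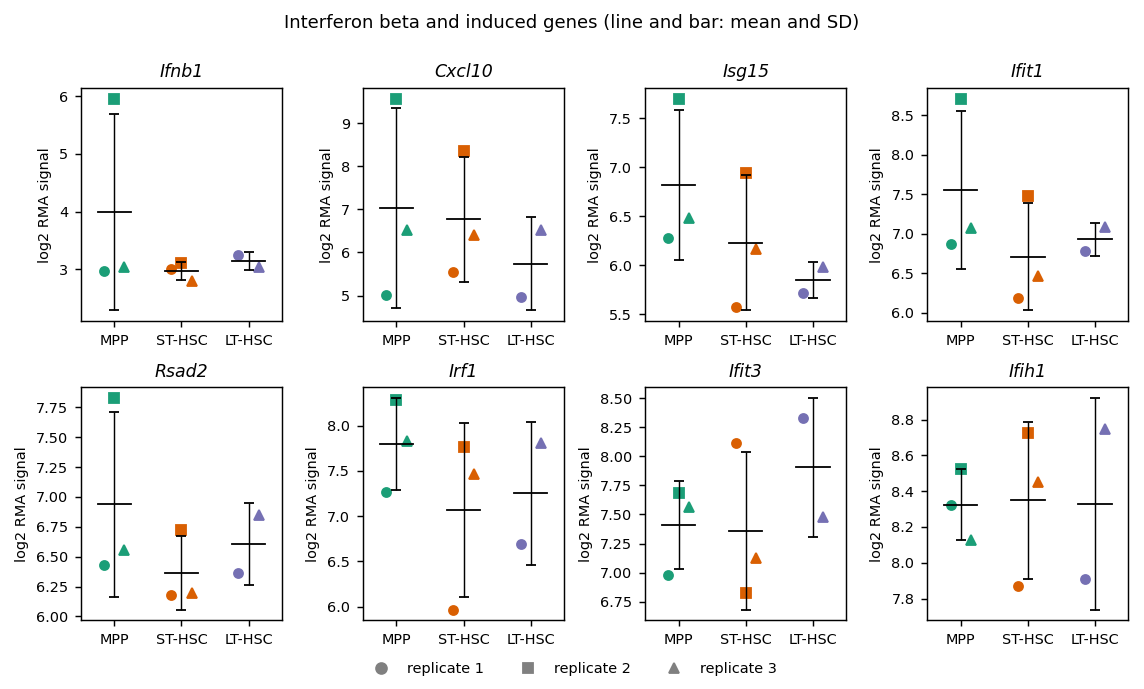
Log2 RMA signal of Ifnb1, Cxcl10, Isg15, Ifit1, Rsad2, Irf1, Ifit3 and Ifih1 in each array of MPP, ST-HSC and LT-HSC (circle, square and triangle for replicates 1, 2 and 3), with the population mean (line) and SD (bar). The square of MPP replicate 2 is the highest point for Ifnb1, Cxcl10, Isg15, Ifit1, Rsad2 and Irf1, and that of ST-HSC replicate 2 is the highest ST-HSC point for the same genes.

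Promoter sequence showed what these genes share outside the arrays. The promoters of Isg15, Ifit1, Rsad2 and Ifit3 are shown because replicate 2 was the highest array of the first 3 in both MPP and ST-HSC, whereas it was the lowest ST-HSC array of the last. Each is the RefSeq sequence of GRCm38.p6 for the 250 bases before the gene's start, written 5′ to 3′ on the gene's strand. Capitals mark matches to GAAANNGAAA or, on the other strand, TTTCNNTTTC, the core of the interferon-stimulated response element (ISRE) that STAT and IRF factors bind.
Isg15: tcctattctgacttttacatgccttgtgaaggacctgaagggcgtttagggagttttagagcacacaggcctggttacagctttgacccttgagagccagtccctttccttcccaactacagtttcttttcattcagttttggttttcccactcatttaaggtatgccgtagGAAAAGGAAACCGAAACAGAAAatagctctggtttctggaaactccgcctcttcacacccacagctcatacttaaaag
Ifit1: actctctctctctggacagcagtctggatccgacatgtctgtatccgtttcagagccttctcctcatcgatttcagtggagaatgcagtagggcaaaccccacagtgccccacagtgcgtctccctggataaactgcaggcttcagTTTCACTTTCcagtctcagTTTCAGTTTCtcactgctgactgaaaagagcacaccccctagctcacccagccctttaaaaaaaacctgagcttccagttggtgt
Rsad2: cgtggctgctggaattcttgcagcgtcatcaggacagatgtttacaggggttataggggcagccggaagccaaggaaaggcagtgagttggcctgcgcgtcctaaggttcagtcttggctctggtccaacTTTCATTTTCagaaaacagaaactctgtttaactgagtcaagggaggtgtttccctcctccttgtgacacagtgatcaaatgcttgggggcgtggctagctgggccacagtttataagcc
Ifit3: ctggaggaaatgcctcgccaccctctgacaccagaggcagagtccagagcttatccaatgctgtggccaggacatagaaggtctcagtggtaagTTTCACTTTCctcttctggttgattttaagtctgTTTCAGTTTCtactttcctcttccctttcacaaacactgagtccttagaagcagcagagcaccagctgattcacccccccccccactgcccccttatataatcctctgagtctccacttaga
Isg15 lies at chr4:156200819-156201068 on the minus strand and held 3 matches that overlap, ending 69, 63 and 57 bases before the start. Ifit1 lies at chr19:34640639-34640888 on the plus strand, with 2 matches at 95 and 76 bases. Rsad2 lies at chr12:26456453-26456702 on the minus strand, with 1 match at 111 bases. Ifit3 lies at chr19:34583279-34583528 on the plus strand, with 2 matches at 147 and 113 bases, so a match was present in all 4 promoters, whichever array was high.

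A promoter window was given for 33 of the 42 listed genes, among 27025 genes. None was given for Gbp9, Oas2, Mx1, Mx2, Rtp4, Usp18, Parp14, Parp9 and Dhx58. The counts below thus leave out the called member, Gbp9, whereas they include Gbp2, which has no array value here. The ISRE core occurred in 14 of 33 (42.4%), against 3.46% of all windows. The gamma-activated sequence TTCNNNGAA, a STAT dimer site that reads the same on both strands, occurred in 10 of 33 (30.3%), against 8.13% of all windows. Matches to the ISRE core differed by role: 6 of 6 GTPases (Gbp2, Gbp3, Gbp5, Gbp7, Igtp and Irgm1), 5 of 10 effectors and 2 of 5 signalling genes (Stat2 and Irf2) held one, against 0 of 4 receptor genes and 0 of 3 antigen processing genes. The receptor genes, whose MPP arrays all lay above those of ST-HSC, thus had no match in this window. Irf1, which was high in replicate 2 of both populations, had no ISRE core and 1 gamma-activated sequence. A match is a run of letters and not a measured binding site.

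Other genes of the interferon pathway were taken from a list of 114, of which 94 had a probe set and 87 were tested. In MPP minus LT-HSC and MPP minus ST-HSC none of the 87 was called, and in ST-HSC minus LT-HSC 0 were called higher and 1 lower, against 0.0853% of all genes lower. That gene was Gm4951, an interferon-inducible GTPase, with 6.87, 6.23 and 6.14 in MPP, 6.30, 6.39 and 6.48 in ST-HSC, and 7.37 and 7.71 in LT-HSC. Both LT-HSC arrays were above all others, and the gene was 2.22-fold lower in ST-HSC than in LT-HSC, a difference of -1.15 (SE 0.23, limma adjusted p = 0.0485), with a call in 5 of 18 alternatives. In MPP its difference from LT-HSC was -1.13 (limma adjusted p = 0.149). Leaving out Gbp4, which passed the filter only through LT-HSC, the tested GTPases outside the 42 genes were Gbp6, Gbp8, Gbp10, Irgm2, Iigp1 and Gm4951. All of them averaged lower in both MPP and ST-HSC than in LT-HSC, where 34.8% of all tested genes had their highest mean in LT-HSC. The median differences of the 87 genes from LT-HSC were 0.16 in MPP and 0.00 in ST-HSC.

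The F test called 1 of the 87 genes, Tlr7, the endosomal sensor of single-stranded RNA (limma adjusted p = 0.0428), a share close to the 0.905% of all genes. Tlr7 had 5.39, 5.40 and 4.96 in MPP, 4.48, 4.10 and 4.16 in ST-HSC, and 4.38 and 4.38 in LT-HSC, so every MPP array was above every stem cell array. MPP exceeded ST-HSC by 1.00 (limma adjusted p = 0.0655) and LT-HSC by 0.87 (limma adjusted p = 0.167). B2m, the light chain of MHC class I molecules, stayed between 12.49 and 12.63 in all 8 arrays. Ifitm3 and Ifitm2, membrane proteins that block viral entry, ranged from 10.73 to 11.09 and from 10.13 to 10.57.

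The arrays of a population differed as widely as the populations. LT-HSC replicate 3 was above replicate 1 for 39 of 40 members (97.5%), with a median difference of 0.49, against 59.7% and 0.14 over all genes. ST-HSC replicate 1 was below both other ST-HSC arrays for 34 of 40 members (85%), against 44.6% of all genes. It was the lowest of all 8 arrays for 21 members and LT-HSC replicate 1 for 14. The median range within a population was 0.40 in MPP, 0.55 in ST-HSC and 0.50 in LT-HSC for the members, against 0.31, 0.35 and 0.37 for all genes. The LT-HSC arrays of Gbp9 were 0.21 apart, and its ST-HSC arrays spanned 0.79.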

How the data were processed

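Total RNA of 8 sorted marrow samples was measured on single-colour arrays after amplification, which can add spread between arrays, per the labels' protocols. The authors deposited log2 values for 33649 probe sets, made with RMA per the submitters' processing notes, with a version not given in the sources used here. That the scale is log2 was inferred from the range, and the array medians lay between 4.95 and 5.22. Of the probe sets 23521 carried 1 gene symbol in the platform annotation, 1814 several and 8314 none. Arrays were grouped by the population in the sample titles. limma 3.58.1 in R 4.3.3 fitted a mean per population over all 8 arrays (5 residual and 5.93 prior degrees of freedom). Genes with a mean at or above the 25th percentile of all probe sets were tested, with 3 contrasts and an F test adjusted by the Benjamini-Hochberg method. The model was tested on simulated data.

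The members, the pathway and marker lists and the tests were chosen with earlier results of these data known. Values in every array are given for called members, for the 4 members with the largest and the 4 with the smallest difference among those without overlap in each contrast, for the 4 highest, the 4 lowest and the 4 most variable members. Values are also given for called genes of the pathway list and for its most highly expressed members, and for Ifnb1, Cxcl10, the GBPs and others named after their values were seen. Replicate numbers came from the titles. MPP and ST-HSC arrays of the same number deviated together from their population means. Their correlations were 0.15, 0.23 and 0.21 for replicates 1, 2 and 3, against -0.28 to 0.07 between different numbers. MPP and ST-HSC arrays of the same number were therefore treated as pairs in a fit with the number as a block. The titles do not say what arrays of the same number share, and the correlations came from the same values as the fit. For LT-HSC and MPP the correlations were -0.16 and 0.10 for replicates 1 and 3, and for LT-HSC and ST-HSC 0.54 and 0.47. With 2 LT-HSC arrays, their deviations from the LT-HSC mean are equal and opposite. The values for replicates 1 and 3 thus rest on the same LT-HSC difference and are not independent signs of pairing. Alternatives covered quantile normalization, median centring, filters, array weights, an intensity trend, the samples in the fit, the block and leaving out arrays. Promoters are RefSeq sequence of GRCm38.p6. The number of arrays limits the precision.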

Additional observations from a re-analysis of the deposited data

How the results depend on the processing

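With 2 or 3 arrays a population, calls were few and moved with most settings. For MPP minus LT-HSC, 1 member was called, and 0 were called under median centring, with no filter, with array weights and without LT-HSC replicate 1 and ST-HSC replicate 1 together. Leaving out 1 array at a time gave 0 to 4 called members, and the 4, without LT-HSC replicate 3, were Gbp9, Ifnar2, Oas2 and Rtp4, in a fit that called 615 of 17576 genes (3.5%), against 22 with all arrays. For ST-HSC minus LT-HSC, 1 member was called, and 0 under median centring, with array weights, with only the 2 populations compared and without both those arrays. Leaving out 1 array at a time gave 0 to 1. For MPP minus ST-HSC, 0 members were called by limma, and also 0 when 1 MPP or ST-HSC array was left out. Array weights gave 2 (Oas2 and Rtp4), in a fit that called 525 of 17576 genes, against 34 without weights. The F test called 1 member, and 0 under median centring and without both arrays. It also called 0 without MPP replicate 1, MPP replicate 3 or ST-HSC replicate 3. A filter at the 50th percentile gave 2 (Gbp9 and Oas2), where the F test called 163 of 11925 genes. With array weights it called 3 (Gbp9, Oas2 and Rtp4), among 386 of 17576 genes. With the replicate number as a block over all arrays, 2 members were called for MPP minus LT-HSC (Gbp9 and Oas2), 3 for MPP minus ST-HSC and 4 by the F test (Gbp9, Ifit1, Mx2 and Oas2), where 0.893%, 1.52% and 3.22% of all genes were called, and the block within MPP and ST-HSC alone called 4. The calls of 22, 164 and 34 genes in the 3 contrasts and 159 by the F test over all genes ranged from 5 to 615, 0 to 825, 1 to 525 and 29 to 566. The members' median difference ran from 0.01 to 0.48 for MPP minus LT-HSC, -0.29 to 0.20 for ST-HSC minus LT-HSC and 0.17 to 0.37 for MPP minus ST-HSC. The sign held in every alternative for 22, 15 and 28 of 40 members. Where an LT-HSC array was left out, the other was assumed to vary like the remaining populations. The causes were not tested. Dim probe sets such as Mx1, Ifnb1 and Gbp4 lie near the level at which RMA values compress differences.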
